A study of Homo sapiens with 6 samples.

Results

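The genes described here encode SR proteins, their relatives TRA2A and TRA2B, heterogeneous nuclear ribonucleoproteins (hnRNPs) and the CDC2-like kinases (CLK1 to CLK4). They were chosen by name, as genes called SRSF and a number, HNRNP followed by capitals or digits, CLK1 to CLK4, TRA2A or TRA2B, and 124 rows described as pseudogenes were left out. This gave 43 of 58884 listed genes, namely 12 SR proteins, 2 TRA2 genes, 25 hnRNPs and 4 CLK kinases. A filter of at least 1 TPM (a length-corrected share of all transcripts, scaled to a fixed total) in at least 3 of the 6 libraries was passed by 39. HNRNPCL1, HNRNPCL2, HNRNPCL3 and HNRNPCL4 did not pass, and each was listed at 0 in every library.

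SR proteins bind exonic sequences through RNA recognition motifs and recruit the spliceosome through tails rich in arginine and serine. hnRNPs coat nascent transcripts and often, though not always, oppose SR proteins at the choice of splice sites. CLK kinases phosphorylate the tails of SR proteins in the nucleus, and many of these genes limit their own mRNA by splicing in a poison exon or keeping an intron.

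The cells were HEK293FT, an established, transformed human embryonic kidney line, so all libraries share 1 genetic background and no tissue is modelled. For 72 h they were kept in supernatant with secreted ISLR, a protein of the extracellular space, or in supernatant of an empty vector control, and 3 libraries were made for each. The libraries of both groups were otherwise from the same line and medium, and none of the labels says that replicates were separate cultures. The p-values here thus set the group difference against the spread between libraries, which may be technical. In bulk RNA, fewer cells expressing a gene and less RNA per cell cannot be told apart.

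The ISLR transcript went against the labels. It was listed at 0, 0.02 and 0 TPM in the ISLR-labelled libraries and at 510.32, 555.37 and 535.06 TPM in the NC-labelled libraries, so groups are called by their labels and every direction below would turn if these were exchanged. The depth of the libraries is unknown. Pairs of libraries of 1 group correlated at 0.980 to 0.984 (Pearson, log2 values) and pairs across groups at 0.963 to 0.972. Of the markers of the line, VIM lay at 1116 to 1260 TPM, NEFM at 149 to 193, NEFL at 25.02 to 34.42 and PAX2 at 0.81 to 1.5. Markers of leukocytes, endothelium and hepatocytes (PTPRC, PECAM1, CDH5, ALB) reached at most 0.25 TPM, the neuronal markers SNAP25 and SYT1 at most 1.0, and of 5 fibroblast markers only COL1A1 passed 1 TPM, at 8.95 to 14.28 TPM. Over all 13869 tested genes, the log2 fold, labelled ISLR minus labelled NC, had a median of 0.22 as deposited. Log2 folds are therefore given relative to this median, on the log2(TPM + 1) scale, and beside the log2 fold after median-of-ratios scaling, which brought that median to 0.00135. The adjusted p belongs to the deposited fold (limma, Benjamini-Hochberg over all tested genes, threshold 0.05) unless scaling is named. Verbs such as rose refer to the deposited fold.

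Promoter sequences were available from RefSeq (GRCh38.p14) for 39 of the 43 genes, with 55 transcription starts. The 3 below are shown because CLK2 and HNRNPA0 rose and SRSF3 fell under each of 4 scalings (below), because each has a single listed start, and because the bases from -100 to -14 before that start lie in no exon of GENCODE 29. They read 5′ to 3′ on the gene's strand, and capitals mark matches, on either strand, to 6 short motifs. CLK2 lies at chr1:155273518-155273604 (minus), inside the annotated span of CLK2 and outside its exons. HNRNPA0 lies at chr5:137754377-137754463 (minus) and SRSF3 at chr6:36594262-36594348 (plus).
CLK2: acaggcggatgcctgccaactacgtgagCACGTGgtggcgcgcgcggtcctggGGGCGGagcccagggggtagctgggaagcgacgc
HNRNPA0: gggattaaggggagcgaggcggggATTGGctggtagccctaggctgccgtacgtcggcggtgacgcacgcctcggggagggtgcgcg
SRSF3: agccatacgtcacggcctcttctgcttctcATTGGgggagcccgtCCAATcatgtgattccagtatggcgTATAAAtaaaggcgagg
The CLK2 sequence holds an E-box from -72 to -67 and a GC box from -47 to -42. The HNRNPA0 sequence holds a CCAAT box, read on the other strand, from -76 to -72. The SRSF3 sequence holds CCAAT boxes from -70 to -66 and from -55 to -51 and a TATA box from -30 to -25. Over the 250 bases before the start, the E-box (CACGTG) was in 9 of 52 promoters of tested members (17.3%), in 8.43% of 14180 promoters of tested genes and in 6.34% of all 35116. The GC box (GGGCGG) was in 63.5% of the members' promoters and 65% of those of tested genes, and the CCAAT box (CCAAT) in 42.3% and 33.1%. The TATA box (TATAAA) was in 11.5% and 5.59%, the NRF1 motif in 15.4% and 8.96%, and the ETS core (CCGGAAG) in 9.62% and 14.2%. Several members have more than 1 start, so these promoters are not independent, and a match is a description of letters only.

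Taken over all tested members, 14 rose and 8 fell in the ISLR-labelled libraries, and 17 passed in neither direction (35.9% of 39 rose and 20.5% fell). Of all tested genes, 38.5% rose and 7.38% fell (45.9% in either direction). After scaling 5 members were higher and 21 lower, against 18.2% and 20.4% of all tested genes. The 5 higher on both scales were CLK1, CLK2, HNRNPM, HNRNPA0 and HNRNPF (18.2% of all genes were higher on both). The 8 lower on both were SRSF2, SRSF3, TRA2A, TRA2B, HNRNPA1, HNRNPA2B1, HNRNPA3 and HNRNPC (7.38% of all genes, and 25.6% kept a call in either direction). All 1024 genes lower as deposited were also lower after scaling, and all 2521 higher after scaling were also higher as deposited. For a gene that fell, the scaled call is therefore no separate support. The median relative log2 fold of the members was -0.13, and -0.17 after scaling. The groups did not overlap for 16 members that were higher and 12 that were lower, against 46.3% and 10.5% of all tested genes (56.8% in either direction).

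**Figure D1:**
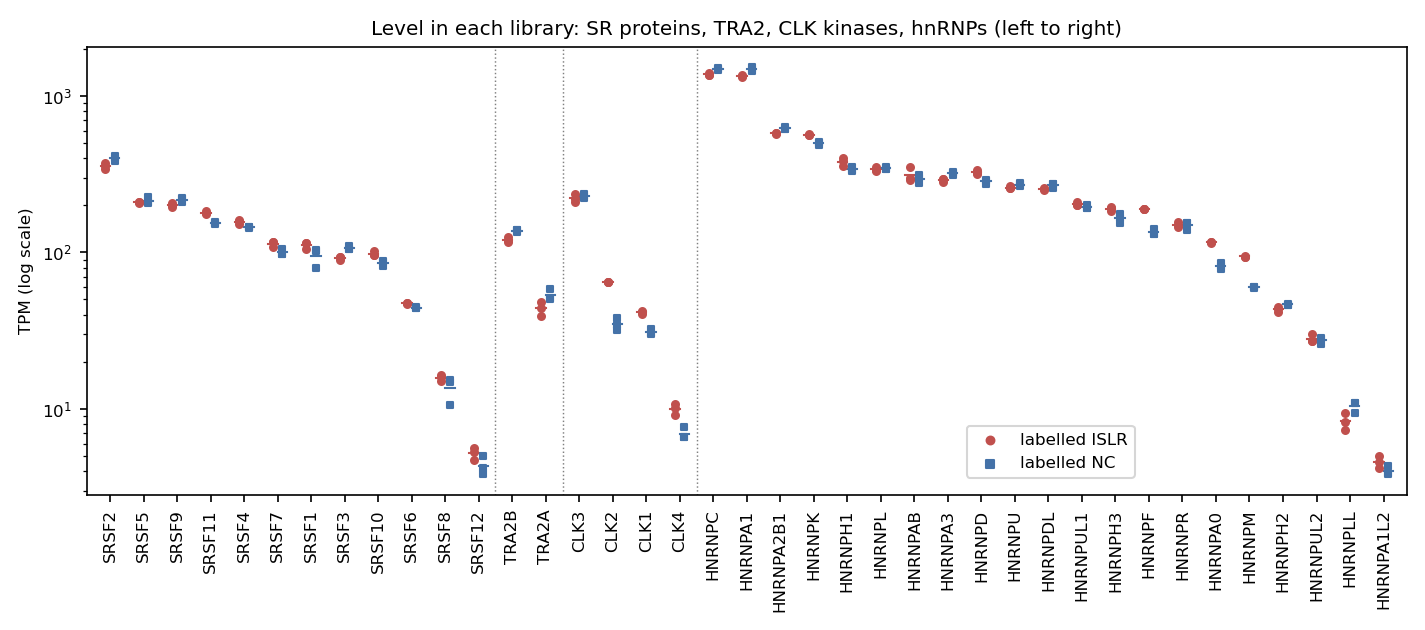
TPM (log axis) of the 39 tested genes in each of the 6 libraries, by class and in falling order of level, with a short line at each group's mean (n = 3). HNRNPC and HNRNPA1 stand highest in every library, and the 3 libraries labelled ISLR stand apart from the NC-labelled libraries for CLK2, HNRNPM, HNRNPA0 and HNRNPF.

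Level moved with these differences. Among all tested genes the median relative log2 fold was 0.05 at 1 to 5 TPM, -0.10 at 50 to 100, -0.19 at 100 to 200, -0.26 at 200 to 500 and -0.32 from 500 TPM. The share that fell rose with it, from 2.91% at 1 to 5 TPM to 18.7% at 100 to 200, 32.2% at 200 to 500 and 51.2% from 500 TPM. The 11 members at 200 to 500 TPM had a median of -0.26 and the 4 from 500 TPM one of -0.33, close to all genes of those levels. In other ranges they stood further apart. The median of 6 members at 20 to 50 TPM was -0.15 against -0.02 for all genes, that of 4 members at 50 to 100 TPM was 0.13 against -0.10, and that of 9 members at 100 to 200 TPM was -0.04 against -0.19. As an alternative chosen after seeing the data, a lowess trend of the group difference with mean level was taken off after scaling. This centres the folds at each level and does not measure how much of a difference is due to level. With the trend removed, 10 members were higher and 6 lower, against 17.2% and 15.8% of all tested genes (33.0% in either direction). The median of the members was then -0.02. With quantile normalization added as a further scale, 5 members rose on all 4 scales (CLK1, CLK2, HNRNPM, HNRNPA0 and HNRNPF, against 14.1% of all genes) and 3 fell (SRSF3, TRA2A and TRA2B, against 6.61%).

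**Figure D2:**
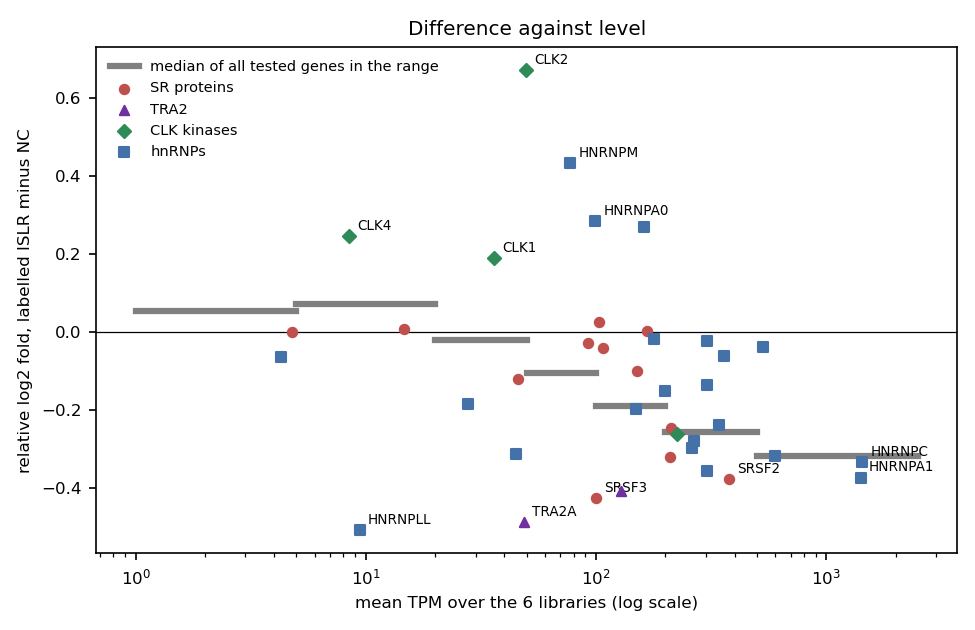
Relative log2 fold (labelled ISLR minus labelled NC, after the median of 0.22 was taken off) against mean TPM over the 6 libraries (log axis), 1 point per tested member by class, with grey bars at the median of all tested genes in each range of level. HNRNPC and HNRNPA1 lie near the bar of their range, while CLK2 and HNRNPM lie above theirs and SRSF3 and TRA2A below.

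Of the 12 SR proteins, 4 rose (33.3%) and 2 fell (16.7%) as deposited, against 38.5% and 7.38% of all tested genes. After scaling none was higher and 6 were lower, against 18.2% and 20.4% of all tested genes. SRSF2, which binds exonic enhancers and is the most abundant here, stood at 357.82, 342.85 and 370.22 TPM in the ISLR-labelled libraries and at 381.86, 413.02 and 401.94 TPM in the NC-labelled libraries. All 3 libraries labelled ISLR lay below the lowest of the others. The relative log2 fold was -0.38 (95% interval -0.47 to -0.28, adjusted p = 0.0170), and -0.41 after scaling (adjusted p = 0.000583). The call was lost without labelled NC 2 (adjusted p = 0.0526), after quantile normalization (0.0842) and with the level trend removed (0.0639).

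SRSF3, the smallest of the classical SR proteins and also an adaptor of mRNA export, stood at 93.85, 93.62 and 89.11 TPM in the ISLR-labelled libraries. In the NC-labelled libraries it stood at 105.68, 104.39 and 110.39 TPM, with no overlap. SRSF3 fell by 0.43 on the relative log2 scale (interval -0.52 to -0.33, adjusted p = 0.00526), with a log2 fold of -0.46 after scaling (adjusted p = 0.0004) and -0.29 with the level trend removed (adjusted p = 0.00327). SRSF7, its closest relative, which binds similar sequences, stood at 108.32, 116.72 and 115.67 TPM against 97.87, 97.64 and 105.57 TPM, with no overlap. As deposited SRSF7 was higher (ratio of means 1.13, log2 fold 0.18, adjusted p = 0.0213), or -0.04 relative to the median gene. After scaling the log2 fold turned to -0.07 (adjusted p = 0.218). Without single libraries (labelled ISLR 2 or 3, labelled NC 1 or 2) the adjusted p of SRSF7 lay between 0.0620 and 0.0692. The ratio of SRSF3 to SRSF7 was 0.813 ± 0.0489 in the ISLR-labelled libraries and 1.06 ± 0.0175 in the NC-labelled libraries (mean ± SD, n = 3 each). A single scaling factor per library leaves such a ratio unchanged. Quantile normalization and removal of the level trend act by level and can change it. The ratios given here were picked after the values had been seen and carry no test.

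SRSF11 and SRSF10 were higher as deposited, with folds close to that of the median gene. SRSF11, a serine-arginine protein known from the choice of alternative splice sites, stood at 177.07, 177.52 and 184.36 TPM against 152.7, 155.91 and 154.08 TPM, without overlap. The deposited log2 fold was 0.22 (adjusted p = 0.00158), or 0.00 relative to the median gene (interval -0.07 to 0.08). After scaling it turned to -0.03 (adjusted p = 0.475). SRSF11 was higher with the level trend removed (0.19, adjusted p = 0.00439) and after quantile normalization (0.18, adjusted p = 0.00517). SRSF10, which represses splicing when dephosphorylated, stood at 96.27, 96.71 and 101.45 TPM against 88.58, 82.23 and 87.38 TPM, again without overlap. Its deposited log2 fold of 0.19 (adjusted p = 0.0119), or -0.03 relative to the median gene, turned to -0.06 after scaling (adjusted p = 0.265). SRSF10 did not pass with the level trend removed (0.10, adjusted p = 0.0879) or after quantile normalization (0.09, adjusted p = 0.137).

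SRSF4 was the fourth SR protein higher as deposited, at 157.2 ± 5.23 against 144.8 ± 0.662 TPM (adjusted p = 0.0298), and it was lower after scaling (-0.13, adjusted p = 0.0138). As deposited its call was lost without any single library other than labelled ISLR 1 (adjusted p from 0.0644 to 0.0974), and it did not pass with the level trend removed (0.08, adjusted p = 0.0954). The other 6 did not pass as deposited. SRSF1, the founding SR protein, stood at 111.9 ± 5.76 against 95.02 ± 13.0 TPM (adjusted p = 0.0895), with labelled NC 1 the lowest at 79.99 TPM. SRSF5, SRSF6 and SRSF9 had adjusted p-values of 0.570, 0.0909 and 0.0593, and after scaling they were lower (-0.28, -0.15 and -0.35). SRSF8 and SRSF12 were the lowest in level, at 15.9 against 13.6 and 5.20 against 4.34 TPM. The summed TPM of the 12 SR proteins was 1589 ± 18.5 in the ISLR-labelled libraries and 1579 ± 21.3 in the NC-labelled libraries, and the groups overlapped. Within that sum SRSF2 held 22.5 ± 0.774% against 25.3 ± 0.778%, SRSF3 5.80 ± 0.230% against 6.77 ± 0.159% and SRSF11 11.3 ± 0.149% against 9.77 ± 0.110%, with no overlap for any of the 3.

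Both TRA2 genes fell, as did 7.38% of all tested genes. TRA2B, a splicing activator that binds GAA-rich enhancers and acts beside SR proteins, stood at 119.57, 125.68 and 115.86 TPM in the ISLR-labelled libraries and at 138.63, 134.13 and 139.87 TPM in the NC-labelled libraries. No library labelled ISLR reached the lowest of the others. This amounted to a relative log2 fold of -0.41 (interval -0.50 to -0.31, adjusted p = 0.00815), -0.44 after scaling (adjusted p = 0.00042) and -0.25 with the level trend removed (adjusted p = 0.00544).

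TRA2A, its paralogue, stood at 44.1, 39.4 and 48.34 TPM against 58.06, 50.02 and 51.37 TPM. The groups were apart by less than 2 TPM. Relative to the median gene, the log2 fold was -0.49 (interval -0.70 to -0.28, adjusted p = 0.0407) and -0.51 after scaling (adjusted p = 0.00363). As deposited the call was lost when labelled ISLR 1 or 2, or NC 1 or NC 3, was left out (adjusted p from 0.0664 to 0.112). The sum of the TRA2 genes was 164.3 ± 0.712 against 190.7 ± 6.29 TPM, without overlap, and TRA2B held 73.2 ± 2.79% against 72.2 ± 1.45% of it, with overlap.

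Of the 4 CLK kinases, 3 rose, against 38.5% of all tested genes. CLK3, the most abundant, did not pass as deposited and was lower after scaling. CLK2, a nuclear kinase of SR proteins, had the largest relative log2 fold of the 39 tested members. It stood at 64.97, 64.83 and 64.82 TPM in the ISLR-labelled libraries and at 31.77, 37.81 and 34.33 TPM in the NC-labelled libraries, a ratio of means of 1.87. The lowest library labelled ISLR was far above the highest of the others. Its relative log2 fold was 0.67 (interval 0.52 to 0.83, adjusted p = 0.000168), 0.65 after scaling (adjusted p = 0.000641) and 0.74 with the level trend removed (adjusted p = 0.000695). In GENCODE 29 on GRCh38, the protein-coding CLK2 spans 155262868 to 155278491 of chromosome 1 on the minus strand.

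CLK1, whose mRNA is known to be stored in the nucleus with introns retained, stood at 41.72, 42.11 and 40.16 TPM against 32.4, 30.05 and 30.41 TPM. The groups did not overlap. The relative log2 fold stood at 0.19 (interval 0.07 to 0.31, adjusted p = 0.00107) and 0.16 after scaling (adjusted p = 0.0492). CLK4, the closest relative of CLK1, stood at 10.12, 10.67 and 9.12 TPM against 6.57, 7.7 and 6.62 TPM, also without overlap. On the relative log2 scale the difference was 0.25 (interval 0.02 to 0.48, adjusted p = 0.00781), and it did not pass after scaling (0.24, adjusted p = 0.105).

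CLK3 stood at 219.54, 209.94 and 236.62 TPM against 222.44, 235.24 and 229.09 TPM, with overlap. This amounted to a relative log2 fold of -0.26 (interval -0.38 to -0.15), the deposited fold did not pass (adjusted p = 0.478), and the scaled fold did (-0.29, adjusted p = 0.00315). The make-up of CLK mRNA differed between the groups. Shares within a library do not move with a single scaling factor per library, but quantile normalization and removal of the level trend can move them. CLK3 held 65.6 ± 1.71% of the summed CLK TPM in the ISLR-labelled libraries and 75.9 ± 0.286% in the NC-labelled libraries. CLK2 held 19.2 ± 0.663% against 11.5 ± 0.666% and CLK1 12.2 ± 0.717% against 10.3 ± 0.705%. None of these shares overlapped. The relative log2 fold of CLK3, -0.26, was also the median of all tested genes at 200 to 500 TPM. With the level trend removed CLK3 did not pass (-0.05, adjusted p = 0.456), while CLK2 and CLK1 were higher. The ratio of CLK2 to CLK3 was 0.293 ± 0.0176 against 0.151 ± 0.00902, and that of CLK1 to CLK3 0.187 ± 0.0157 against 0.135 ± 0.00924.

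**Figure D3:**
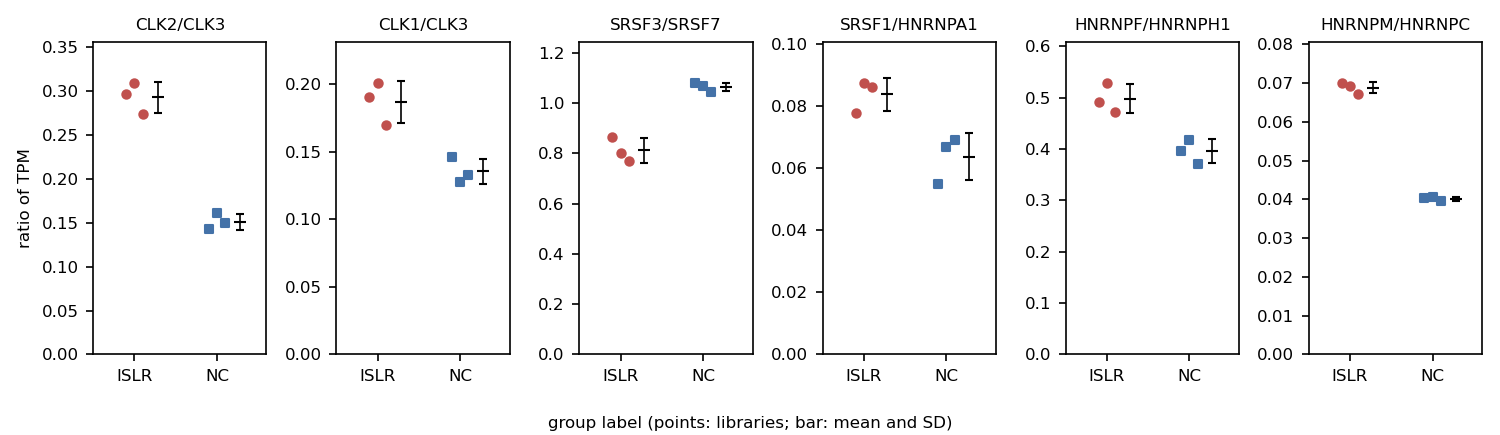
Ratio of TPM between pairs of members in each library (points) with mean and SD (bars, n = 3 per group), each axis from 0. For every pair drawn the 3 libraries labelled ISLR lie apart from the 3 labelled NC, and SRSF3/SRSF7 is the pair that is lower in those labelled ISLR. The pairs were picked after the values had been seen. Of the ratios taken but not drawn, TRA2B/HNRNPA1 and HNRNPLL/HNRNPL overlapped between the groups and SRPK1/CLK1 did not.

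Of 21 tested hnRNPs, 7 rose (33.3%) and 4 fell (19.0%), against 38.5% and 7.38% of all tested genes. After scaling 3 were higher and 12 lower, against 18.2% and 20.4% of all tested genes. HNRNPM, a splicing regulator that binds GU-rich RNA, rose most. It stood at 94.99, 93.88 and 93.96 TPM in the ISLR-labelled libraries and at 58.79, 60.52 and 59.86 TPM in the NC-labelled libraries, and the spread within either group was small beside the gap. Relative to the median gene, the log2 fold was 0.43 (interval 0.35 to 0.52, adjusted p = 6.6e-05), 0.40 after scaling (adjusted p = 0.000402). HNRNPM lies on chromosome 19 at 8444767 to 8489114, plus strand.

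HNRNPF, which binds G-rich sequences, stood at 187.97, 189.35 and 189.34 TPM against 131.84, 141.15 and 130.96 TPM. Its relative log2 fold was 0.27 (interval 0.18 to 0.36, adjusted p = 0.000193), 0.24 after scaling (adjusted p = 0.00481). HNRNPA0, an A/B-type hnRNP that binds AU-rich elements, stood at 116.53, 116.52 and 115.18 TPM against 81.82, 78.29 and 85.19 TPM. The relative log2 fold stood at 0.28 (interval 0.19 to 0.38, adjusted p = 0.000235), 0.25 after scaling (adjusted p = 0.00277). Neither gene's groups overlapped. Both are annotated with no transcript subject to nonsense-mediated decay, and HNRNPA0 with a single transcript.

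The 4 hnRNPs that fell as deposited were HNRNPA1, HNRNPC, HNRNPA3 and HNRNPA2B1. Of the 4 hnRNPs from 500 TPM, HNRNPK is described further on, since it rose as deposited. HNRNPA1, an A/B-type hnRNP that represses exons and competes with SR proteins, stood at 1350.86, 1315.08 and 1338.38 TPM against 1451.3, 1520.95 and 1493.6 TPM. On the relative log2 scale the difference was -0.37 (interval -0.43 to -0.32, adjusted p = 0.00225), -0.41 after scaling (adjusted p = 0.000206), and it did not pass with the level trend removed (-0.06, adjusted p = 0.185) or after quantile normalization (adjusted p = 0.0619). The files list 75 pseudogene rows of HNRNPA1 with a summed 12.6 ± 0.673 against 11.3 ± 0.276 TPM, and reads shared with near-identical copies could not be told apart.

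HNRNPC, a protein of the core particle that binds uridine tracts, stood at 1357.53, 1356.49 and 1398.61 TPM against 1459.4, 1490.03 and 1513.8 TPM, without overlap. This amounted to a relative log2 fold of -0.33 (interval -0.39 to -0.28, adjusted p = 0.00619), -0.37 after scaling (adjusted p = 0.000109) and -0.02 with the level trend removed (adjusted p = 0.537). The call of HNRNPC was also lost after quantile normalization (adjusted p = 0.184) and without limma's trend and robust options (0.106). HNRNPA3, an A/B-type hnRNP, stood at 293.3, 283.02 and 293.23 TPM against 311.2, 322.03 and 325.93 TPM, without overlap. Relative to the median gene, the log2 fold was -0.36 (adjusted p = 0.00867), -0.39 after scaling (adjusted p = 0.000291) and -0.12 with the level trend removed (adjusted p = 0.0324), and its call was lost after quantile normalization (0.0616). HNRNPA2B1, which shares core particles with HNRNPA1, fell too, at 578.2 ± 3.67 against 620.0 ± 11.9 TPM (adjusted p = 0.0130). It did not pass with the level trend removed (-0.04, adjusted p = 0.217) or after quantile normalization (-0.03, adjusted p = 0.33).

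HNRNPK and HNRNPD rose as deposited, with the level trend removed and after quantile normalization, but not after median-of-ratios scaling. HNRNPK, which binds C-rich sequences, stood at 560.2, 559.46 and 571.2 TPM against 497.91, 488.29 and 506.97 TPM. Its deposited log2 fold was 0.18 (adjusted p = 0.00148), or -0.04 relative to the median gene. The scaled fold had the opposite sign to the deposited fold, at -0.07 (adjusted p = 0.0554). With the level trend removed it was 0.23 (adjusted p = 0.000913), and after quantile normalization 0.25 (adjusted p = 0.00123). HNRNPD, also called AUF1 and known for binding AU-rich elements of unstable mRNAs, stood at 321.04, 316.15 and 336.84 TPM against 286.75, 275.06 and 289.87 TPM. The deposited log2 fold stood at 0.19 (adjusted p = 0.00448), or -0.02 relative to the median gene. After scaling it turned to -0.06 (adjusted p = 0.197). With the level trend removed it was 0.21 (adjusted p = 0.00306), and after quantile normalization likewise 0.21 (adjusted p = 0.00536). In neither gene did the groups overlap. HNRNPH1 and HNRNPH3, relatives of HNRNPF, were the other pair that rose as deposited (adjusted p = 0.0268 and 0.0175), with scaled folds of -0.09 and -0.05 that did not pass. With the level trend removed they were higher (0.19 and 0.17, adjusted p = 0.0168 and 0.0287). As deposited, the call of HNRNPH1 was lost without labelled ISLR 1, ISLR 3, NC 1 or NC 2 (adjusted p from 0.0685 to 0.0772) and that of HNRNPH3 without labelled ISLR 2 or ISLR 3 (0.0508 and 0.0596).

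The remaining 10 tested hnRNPs did not pass as deposited, with adjusted p-values from 0.0651 for HNRNPLL to 0.788 for HNRNPR. HNRNPLL, a low-level relative of HNRNPL, stood at 8.37 ± 1.05 against 10.45 ± 0.892 TPM and was lower after scaling (-0.52, adjusted p = 0.00867). It was also lower with the level trend removed (-0.59, adjusted p = 0.00665) and after quantile normalization (-0.57, adjusted p = 0.00794). HNRNPL, HNRNPU, HNRNPDL, HNRNPH2, HNRNPR, HNRNPUL1 and HNRNPUL2 were also lower after scaling, by log2 folds between -0.34 and -0.18. Of these only HNRNPH2 was lower with the level trend removed (-0.25, adjusted p = 0.00628) and after quantile normalization (-0.26, adjusted p = 0.00572). HNRNPAB and HNRNPA1L2 passed on none of these scales, and HNRNPA1L2 is a near copy of HNRNPA1. Summed hnRNP TPM was 7038 ± 74.9 against 7092 ± 105, with overlap, and all 43 members together held 0.925% against 0.930% of TPM, again with overlap.

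**Figure D4:**
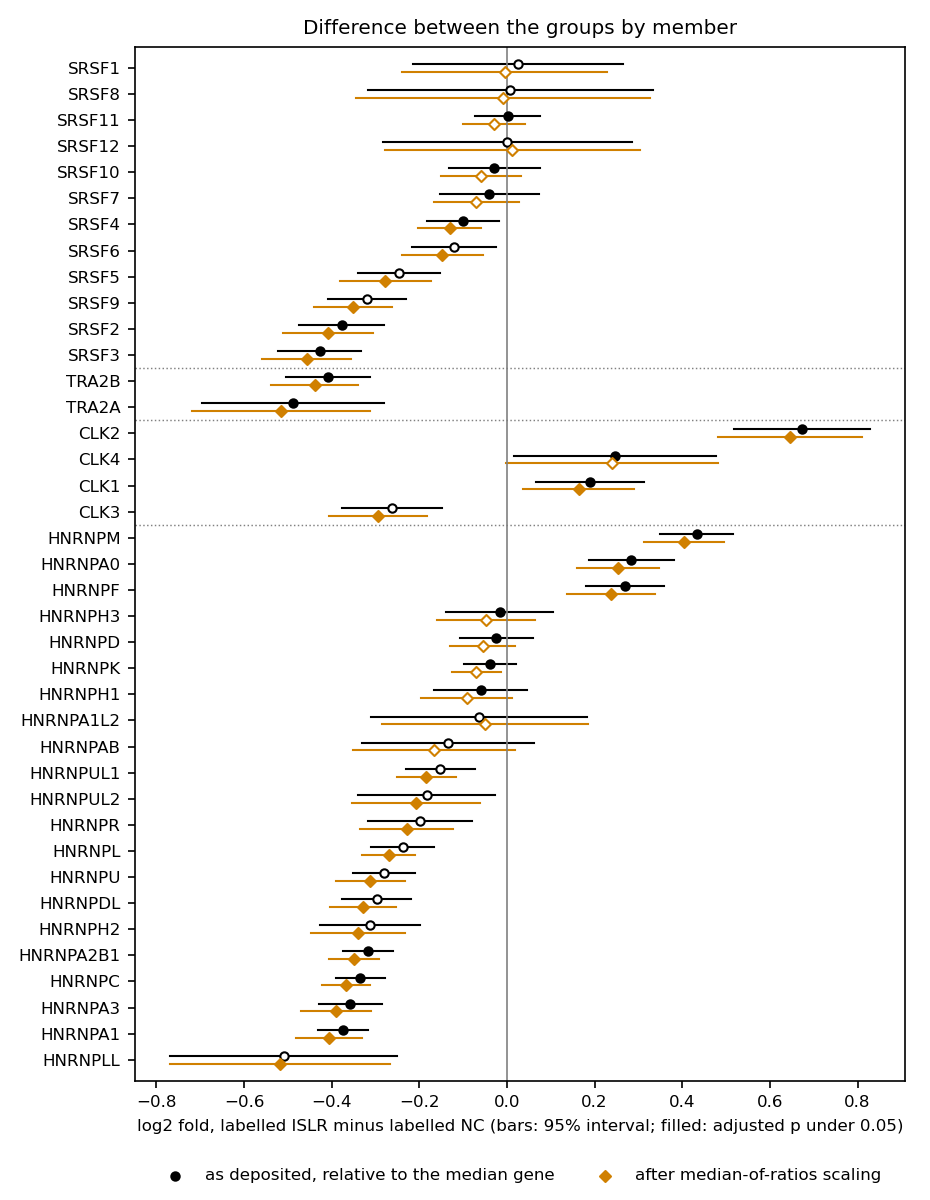
Difference between the groups for each tested member, labelled ISLR minus labelled NC in log2 units, as deposited relative to the median gene (black) and after median-of-ratios scaling (orange), with 95% intervals and filled symbols where the adjusted p is under 0.05. CLK2 and HNRNPM lie furthest to the right, and on both scales HNRNPLL and TRA2A lie furthest to the left.

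Within the hnRNPs the shares shifted as well. HNRNPA1 held 19.0 ± 0.321% of the summed hnRNP TPM in the ISLR-labelled libraries and 21.0 ± 0.497% in the NC-labelled libraries, and HNRNPC 19.5 ± 0.138% against 21.0 ± 0.158%. HNRNPK held 8.01 ± 0.0178% against 7.02 ± 0.0893%, HNRNPF 2.68 ± 0.0235% against 1.90 ± 0.0940% and HNRNPM 1.34 ± 0.0204% against 0.842 ± 0.0144%. None of these overlapped. With the level trend removed HNRNPA1 and HNRNPC did not pass, while HNRNPK, HNRNPF and HNRNPM were higher. The ratio of HNRNPM to HNRNPC was 0.0688 ± 0.00144 against 0.0401 ± 0.00055, and that of HNRNPF to HNRNPH1 0.498 ± 0.0281 against 0.396 ± 0.0232. The ratio of SRSF1 to HNRNPA1, known antagonists at 5′ splice sites, was 0.0839 ± 0.0052 against 0.0637 ± 0.00753, without overlap. That of TRA2B to HNRNPA1 was 0.0902 ± 0.00474 against 0.0925 ± 0.00381, with overlap. HNRNPLL to HNRNPL stood at 0.0247 ± 0.00297 against 0.0304 ± 0.00234, also with overlap.

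The table gives 1 value per gene, so productive and unproductive isoforms were not measured apart. In GENCODE 29, 30 of the 39 tested members (76.9%) have at least 1 transcript annotated for nonsense-mediated decay, against 44.2% of 11815 tested protein-coding genes. All 12 SR proteins and both TRA2 genes have one, as do 13 of 21 tested hnRNPs and CLK1, CLK3 and CLK4. CLK2 has none. A transcript with a retained intron is annotated for 28 of 39 members (71.8%) and for 58.1% of tested protein-coding genes. These shares are not matched for the number of annotated transcripts. Its median was 11 for the tested members and 8 for tested protein-coding genes.

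Other genes of this machinery were taken as 6 lists. The share of a list that rose ran from 44.4% to 69.2%, against 38.5% of all tested genes. The share that fell ran from 5.26% to 14.3%, against 7.38%. The shares of the lists are not matched for level, and their median levels ran from 14.6 to 144 TPM. Of all tested genes 45.3% rose at 5 to 20 TPM, 46.8% at 20 to 50, 41.3% at 50 to 100 and 34.3% at 100 to 200. Over the same ranges the share that fell ran from 4.88% to 18.7%. After scaling, 18.2% of all tested genes were higher and 20.4% lower. Of 13 further kinases, importers and phosphatase subunits acting on SR proteins, 9 rose and 1 fell, and 4 were higher and 2 lower after scaling (median relative log2 fold 0.15). PPP1R8, a nuclear regulator of protein phosphatase 1 also called NIPP1, stood at 57.6 ± 2.75 against 27.5 ± 1.32 TPM (0.83 in relative log2 fold, adjusted p = 7.18e-05). SRPK1, the main cytoplasmic kinase of SR proteins, stood at 52.6 ± 1.64 against 33.7 ± 3.71 TPM (adjusted p = 0.00112), and PRPF4B, a kinase of spliceosomal proteins, at 17.8 against 11.3 TPM (adjusted p = 0.00112). PPP1CA, a catalytic subunit of protein phosphatase 1, fell, at 112 against 132.3 TPM (-0.46, adjusted p = 0.00173).

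Of 29 SR-related factors, 15 rose and 3 fell, and 6 were higher and 9 lower after scaling (median 0.04). SRRM2 and SON, large proteins of nuclear speckles, rose, at 461.8 ± 11.3 against 306.8 ± 8.43 TPM (0.37, adjusted p = 6.6e-05) and 76.1 ± 5.62 against 40.2 ± 4 TPM (0.69, adjusted p = 0.000363). RSRP1, a small arginine and serine rich protein, fell, at 49.2 ± 0.401 against 81.8 ± 3.44 TPM (-0.94, adjusted p = 9.44e-05). CCNL1, a cyclin with an arginine and serine rich tail, fell as well, at 55.6 against 77.3 TPM (-0.69).

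Of 20 hnRNP-like genes under other symbols, 19 had a single row and were tested. Of these 11 rose and 1 fell, and 4 were higher and 6 lower after scaling (median 0.02). PCBP1, which binds C-rich RNA as HNRNPK does, stood at 179.1 against 109.7 TPM (adjusted p = 5.22e-05). EWSR1, an RNA-binding protein, stood at 206.7 against 157.3 TPM (adjusted p = 0.000398). SFPQ, a paraspeckle protein, rose as deposited at 160.1 against 125.2 TPM (adjusted p = 0.000452) but did not pass after scaling (0.11, adjusted p = 0.064).

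Of 21 further tested splicing regulators, a list that holds SRPK1 again, 12 rose and 2 fell, and 6 were higher and 4 lower after scaling (median -0.01). SAFB and SAFB2 rose, at 202.7 against 127.8 and 89.2 against 56.5 TPM, as did RBM5 at 93.2 against 62.9 TPM. TIA1, which activates weak 5′ splice sites, fell, at 27.5 ± 1.2 against 44.8 ± 4.48 TPM (-0.90, adjusted p = 0.000722). Of 14 factors of nonsense-mediated decay, 8 rose and 2 fell, and 6 were higher and 3 lower after scaling (median 0.12). UPF1, its central helicase, stood at 69.0 ± 5.14 against 40.9 ± 1.43 TPM (0.52, adjusted p = 0.000263). UPF3B (0.33), SMG8 (0.44) and CASC3 (0.18) rose too. Of 9 proteins of the minor, U12-type spliceosome, 4 rose and 1 fell, and 3 were higher and 2 lower after scaling (median -0.01). PDCD7 (0.61), RNPC3 (0.50) and SNRNP48 (0.25) rose and SNRNP25 (-0.46) fell.

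**Figure D5:**
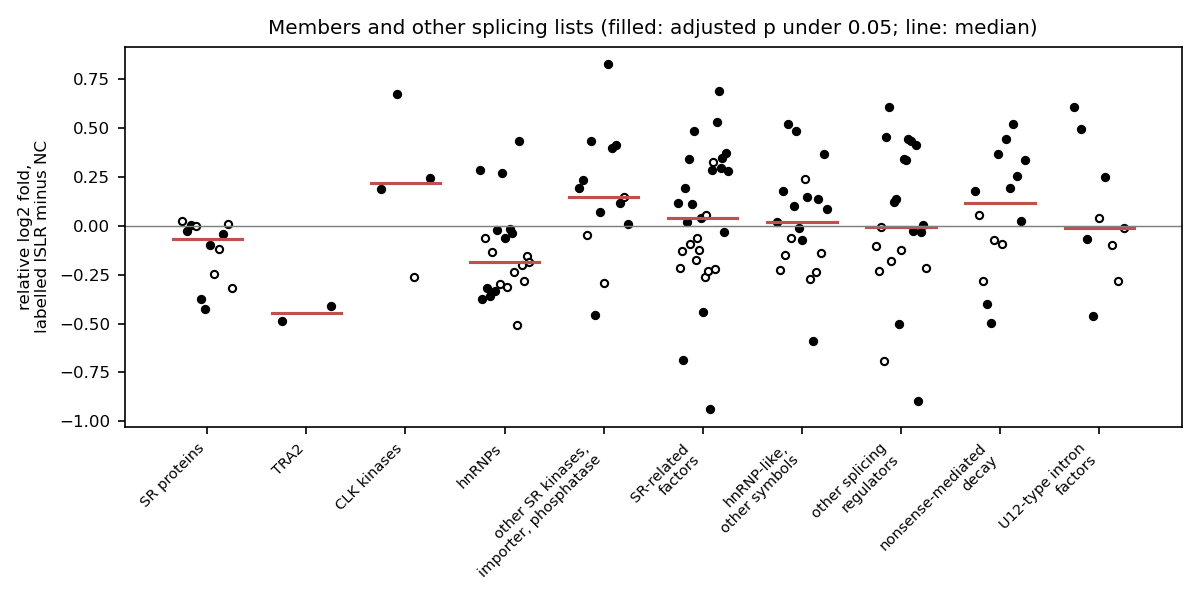
Relative log2 fold (labelled ISLR minus labelled NC) of each tested gene in the 4 classes of members and the 6 further lists, 1 point per gene, filled where the adjusted p is under 0.05, with a line at the median. The medians run from -0.45 for TRA2 to 0.22 for the CLK kinases.

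The authors' deposited table gives 35 of the 39 tested members an adjusted p under 0.05, against 51.2% of all tested genes. These shares are not matched for level. The tested members had a median level of 151 TPM, while 4436 of 13869 tested genes lay at 1 to 5 TPM and 4592 at 5 to 20 TPM. None of the members carried the mark of significance of the authors' deposited table, which 250 genes carry, and a direction is not given there. Of the 16 members whose group means differed by a ratio between 0.9 and 1.1, the authors' deposited table passes 15. HNRNPR was one, at means of 150.5 and 148.7 TPM and an adjusted p of 3.71e-09 by the authors' deposited table. Over genes of at least 20 TPM, the share that misses 0.05 in the authors' deposited table was highest, at 84.0% of 407 genes, where the TPM ratio lay between 1.23 and 1.32. That share in the authors' deposited table was 6.72% of 610 genes where the ratio lay between 0.933 and 1. Those p-values were thus least often small at a TPM ratio above 1, and they are not set beside the folds given here.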

How the data were processed

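RNA-seq of HEK293FT cells was analysed in 6 libraries, 3 for each supernatant, grouped by the sample titles. The deposited table gives TPM per gene and library, made by the authors. HISAT2, Cufflinks and RSEM and the build GRCh38.p10 are named per the submitters' processing notes, while no source used here states their roles, versions or strand setting. The authors also deposited the p-value and adjusted p-value per gene of their own comparison, for which the name of the deposited table gives DESeq2. TPM keeps no depth, so no counting interval can be given, and its sum per library was 984557 to 987784.

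The member genes, the 6 further lists and the rule for naming genes were chosen with earlier results of these data known. For named genes the rule took the 5 SR proteins, up to 3 TRA2 or CLK genes each and the 8 hnRNPs with the smallest p, the most abundant gene of each class, and 4 genes of at least 5 TPM from each further list. The values of 1 gene so named are not reported here. MATR3 has 2 rows and was left out. A blank row was removed.

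Genes reaching 1 TPM in 3 or more libraries were transformed to log2(TPM + 1) and fitted with limma 3.58.1 in R 4.3.3, with trend and robust options and group as the only term. Tests were two-sided with Benjamini-Hochberg adjustment over 13869 genes. The pseudocount understates changes of low genes. The code was checked on simulated data. Alternatives were pseudocounts of 0.1 and 5, no filter and a filter of 5 TPM, median-of-ratios scaling, quantile normalization, limma without trend and robust, a replicate block, each library left out, and the authors' calls. After seeing the data, removal of the trend with level (lowess, span 0.3, on scaled values) was added. A permutation of 3 against 3 libraries cannot go below 0.1. Positions come from GENCODE 29 (GRCh38) and promoters from RefSeq (GRCh38.p14). Figures were drawn with matplotlib 3.10.9.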

Additional observations from a re-analysis of the deposited data

How the results depend on the processing

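The count of members past the threshold was 22 in the fit described above. It was 13 without the trend and robust options (10 higher, 3 lower) and 35 by the adjusted p of the authors' deposited table. It lay between 16 and 26 under the other alternatives that keep all libraries, and between 18 and 20 with 1 library left out, where all genes past the threshold numbered 4891 to 5546 against 6370. After quantile normalization 16 members passed (10 higher, 6 lower). Median-of-ratios scaling turned the sign of 16 tested members. Among those whose values are given per library these were SRSF11 (-0.029), SRSF10 (-0.059), SRSF7 (-0.070), HNRNPK (-0.070) and HNRNPD (-0.056), none of which then passed, while SRSF4, SRSF6, HNRNPUL1, HNRNPUL2 and HNRNPR turned and passed as lower. The size factors were 1.07 to 1.11 for the ISLR-labelled libraries and 0.911 to 0.928 for the NC-labelled libraries, so scaling lowered the folds. Members that turned had small positive deposited log2 folds, from 0.019 (HNRNPR) to 0.24 (SRSF1). Why the size factors differ between the groups was not tested. Over all genes scaling changed the calls from 5346 higher and 1024 lower to 2521 and 2827.

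Of the 43 genes picked by the naming rule, 5 lost the call without trend and robust (SRSF2, SRSF7, TRA2A, HNRNPC and HNRNPA3), 9 after quantile normalization (SRSF10, SRSF2, SRSF7, HNRNPA1, HNRNPC, HNRNPA3, CLK4, SMG8 and SNRNP48) and 8 of these 9 with the level trend removed (all but HNRNPA3), while pseudocounts of 0.1 and 5 and a filter of 5 TPM changed no call among them. With no filter, SRSF7 (adjusted p = 0.0517) and TRA2A (0.099) were lost. Members outside that rule lost calls too. Without trend and robust these were SRSF4 (adjusted p = 0.122), HNRNPA2B1 (0.147), HNRNPH1 (0.0971) and HNRNPH3 (0.0584). With no filter they were SRSF4 (0.0608) and HNRNPH1 (0.0664). The replicate numbers of the titles gave no sign of pairing, since deviations of same-numbered libraries correlated at 0.0201, 0.0468 and -0.0556 and not every library correlated best with its own number. With a replicate block 23 members (14 higher, 9 lower) and 5778 genes passed, with SRSF4 lost (adjusted p = 0.0513) and SRSF1 (0.0303) and HNRNPLL (0.0465) gained. Without read counts, the precision of low genes such as SRSF12 and HNRNPA1L2 cannot be given.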
